A study of Mus musculus with 15 samples.

Results

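The genes described here make sterols and fatty acids. They were listed by name as 34 mouse genes, 23 of the sterol branch and 11 of the fatty acid branch, and each was read from the probe set that carries its symbol alone (the brightest on average, where a gene had several). A probe set of that kind was found for 31 of the 34 genes, among 22180 genes in the whole data set. Of the 31, 30 passed the filter on dim probe sets, 21 of the sterol branch and 9 of the fatty acid branch, among 15468 genes tested. Idi1 and Scd2 shared their probe sets with other symbols and have no value here, Acat2 was not analysed here, and Scd1 was too dim to test.

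The cells were RAW264.7, a transformed mouse macrophage line, and whole-transcript expression arrays were run on their total RNA. Of 5 groups of 3 arrays, 4 were stimulated with lipopolysaccharide (LPS), a bacterial cell wall component that activates macrophages, at 1.0 µg/mL, and harvested after 24 h. Before LPS they had 30 min with 5.0 µM 13-HDHEA, with 5.0 µM 16-HDHEA, with 2.5 µM of each, or with vehicle, and the fifth group had vehicle and no LPS. All 5 groups, those with HDHEA included, contained 0.1% ethanol, and the cells without LPS received buffered saline in its place. The HDHEAs are hydroxydocosahexaenoyl ethanolamides, ethanolamides of docosahexaenoic acid that carry a hydroxyl group, and the 2 compounds differ in the carbon that carries it. Each of 3 experiments gave 1 array to each group, so that an experiment can be followed across groups. One transformed line was used, and the spread below is that between experiments with it.

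Cholesterol is built from acetyl-CoA by the mevalonate pathway, which ends in squalene, and by a chain of oxidations and reductions that turns squalene into cholesterol. Fatty acids are built from the same acetyl-CoA by carboxylation and repeated condensation, then lengthened by elongases and given double bonds by desaturases. Both branches are controlled by the SREBP transcription factors, which SCAP carries to the Golgi for activation and which the INSIG proteins hold back in the endoplasmic reticulum when sterols are plentiful. In macrophages the balance of sterol and fatty acid synthesis is known to shift with Toll-like receptor signalling.

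The promoters of 4 members are shown because these genes had the largest falls with LPS of their branch, as given further on, among those with a single promoter in the RefSeq table of assembly GRCm38.p6. They were picked after the values were seen, Hmgcs1 included, although its promoter also holds the sterol element core marked below. Each runs 5′ to 3′ from 250 bases before to 50 bases after the gene's start. They lie at chr13:119690101-119690400 on the plus strand for Hmgcs1, chr5:28071162-28071461 on the plus strand for Insig1, chr11:120824498-120824797 on the minus strand for Fasn and chr19:10101454-10101753 on the minus strand for Fads2. Capitals mark matches, on either strand, to TCACNCCAC (the core of a sterol element), CCAAT (the CCAAT box) and GGGCGG (the GC box).
Hmgcs1: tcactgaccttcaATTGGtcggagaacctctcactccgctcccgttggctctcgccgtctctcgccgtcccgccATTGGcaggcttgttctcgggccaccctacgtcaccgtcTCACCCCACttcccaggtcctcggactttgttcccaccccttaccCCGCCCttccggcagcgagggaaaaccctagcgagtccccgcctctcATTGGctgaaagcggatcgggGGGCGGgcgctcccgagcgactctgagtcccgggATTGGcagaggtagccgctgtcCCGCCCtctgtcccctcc
Insig1: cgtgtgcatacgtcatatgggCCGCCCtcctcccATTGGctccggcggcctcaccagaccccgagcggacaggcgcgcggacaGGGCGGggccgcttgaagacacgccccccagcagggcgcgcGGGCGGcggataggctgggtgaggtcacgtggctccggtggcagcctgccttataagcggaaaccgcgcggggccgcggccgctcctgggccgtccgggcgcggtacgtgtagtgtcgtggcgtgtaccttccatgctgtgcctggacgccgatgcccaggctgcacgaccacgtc
Fasn: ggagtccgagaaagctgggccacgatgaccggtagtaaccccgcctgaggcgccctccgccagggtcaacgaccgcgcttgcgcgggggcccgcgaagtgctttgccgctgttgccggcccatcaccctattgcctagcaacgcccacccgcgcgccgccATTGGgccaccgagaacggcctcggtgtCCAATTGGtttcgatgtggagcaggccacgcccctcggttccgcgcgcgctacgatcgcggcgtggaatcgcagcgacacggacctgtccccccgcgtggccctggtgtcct
Fads2: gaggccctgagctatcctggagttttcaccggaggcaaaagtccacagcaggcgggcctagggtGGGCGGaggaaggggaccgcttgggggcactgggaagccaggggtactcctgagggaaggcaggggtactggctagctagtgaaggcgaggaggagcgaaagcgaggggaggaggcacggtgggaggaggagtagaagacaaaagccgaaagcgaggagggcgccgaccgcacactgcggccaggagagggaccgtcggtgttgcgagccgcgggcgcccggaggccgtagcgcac
The Hmgcs1 promoter held 1 match to the sterol element core, 4 CCAAT boxes and 3 GC boxes. That of Insig1 held 1 CCAAT box and 3 GC boxes, that of Fasn 3 CCAAT boxes, of which a pair overlap, and that of Fads2 a single GC box.

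The table held 34 promoters for 27 of the 34 members. A CCAAT box stood in 64.7% of the members' promoters, against 37.4% of all 32851 promoters of the table. A GC box stood in 76.5% of the members' promoters, against 35.7% of all. Counted by gene, 17 of 19 sterol members and 5 of 8 fatty acid members had a CCAAT box, against 41.1% of all genes of the table. For the GC box the counts were 18 of 19 and 4 of 8, against 38.2% of all genes. The sterol element core was found in 1 of the 34 promoters, which is 2.94%, against 1.24% of all promoters. These shares were not matched for base composition, and an absent match says only that the letters are not in this window.

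The arrays read alike: their medians lay between 3.62 and 3.69 on the log2 scale. All 10 macrophage markers listed were above the filter, with group means of 6.04 to 12.51 and a summed log2 level of 104.7 to 106.0 with LPS and vehicle, against 94.9 to 96.9 without LPS. Between these groups 5 of the 10 were called higher, Adgre1 (4.50), Cd86 (2.53), Fcgr1 (1.56), Mertk (1.36) and Cd14 (0.30, all log2 differences), and Csf1r was called lower, at -0.24 (adjusted p = 0.037). Over all genes, 13.5% were called higher and 16.3% lower. Cd68 (12.42 against 12.51), Lyz2 (11.83 against 12.03) and Spi1 (8.43 against 8.60) also averaged lower with LPS and vehicle but were not called, nor was Itgam (11.69 against 11.61). Of 5 T and B cell markers found on the arrays, 4 had group means under the arrays' 40th percentile throughout. The sum over these 5 was 13.2 to 14.7 with LPS and vehicle and 13.4 to 14.5 without LPS. The 8 fibroblast and epithelial markers had group means of 3.03 to 4.85, summed to 28.8 to 29.3 with LPS and vehicle and 28.3 to 29.2 without LPS, and none of them was called between these groups. Dcn, a fibroblast gene, averaged 3.54 with 13-HDHEA (adjusted p = 0.000556) and 3.32 with both compounds (adjusted p = 0.0262), each called higher than the 3.03 without LPS, which is under the 40th percentile. The part of these marker shifts in the results below was not tested.

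Most genes of both branches were lower in cells with LPS. With LPS and vehicle, 17 of the 21 sterol members tested and 6 of the 9 fatty acid members tested were lower than without LPS, and 0 members were higher. The call is an adjusted p under 0.05 in limma, with Benjamini-Hochberg adjustment over all 15468 genes, and it was met by 16.3% of all genes in the lower direction and 13.5% in the higher one. The members were chosen with earlier results of these data known, so these shares give the scale and are no test of the list. All 30 members tested had a difference below 0, among them the 7 not called. The median log2 difference was -0.53 in the sterol branch and -0.41 in the fatty acid branch, against 0.00 over all genes tested, of which 50% lay below 0. Each called member fell by a moderate amount, 1.21- to 1.89-fold in the sterol branch and 1.31- to 1.72-fold in the fatty acid branch. RMA makes the distribution of every array nearly the same, so these are changes relative to the other genes, and in bulk RNA a change in part of the cells cannot be told apart from a change in all of them.

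**Figure D1:**
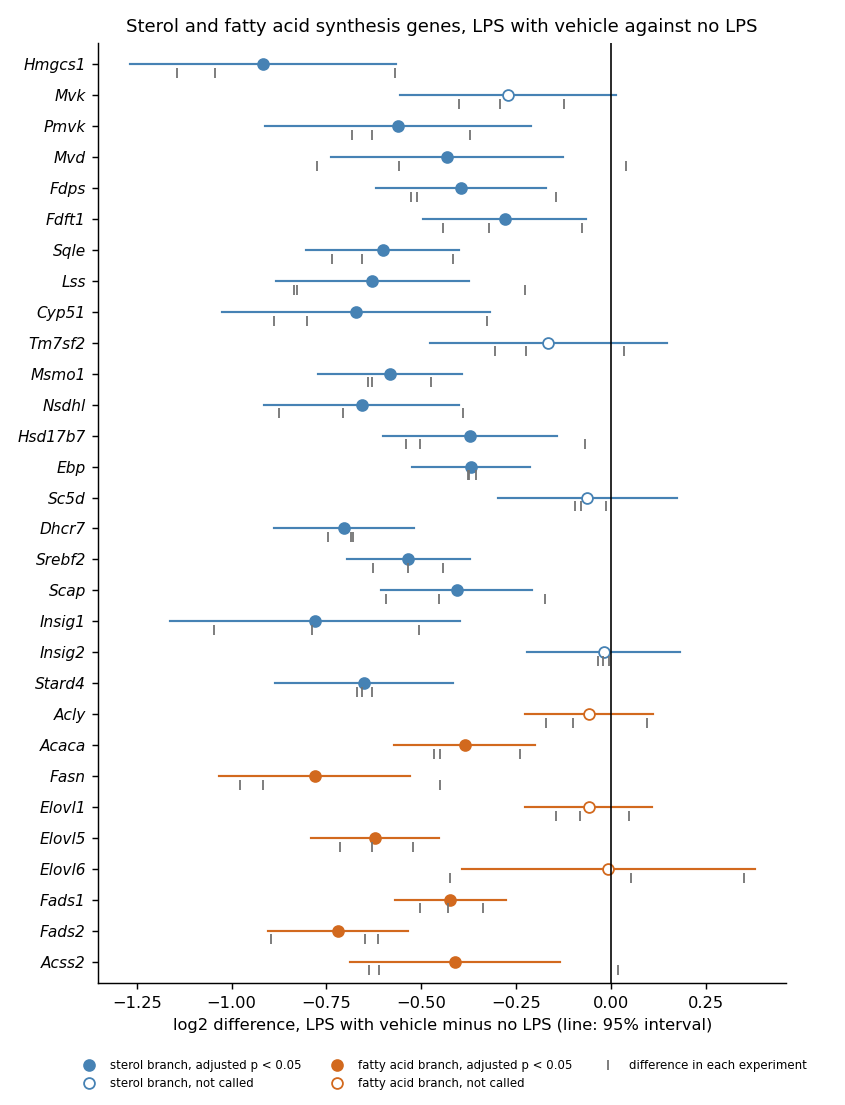
Log2 difference of each tested member, LPS with vehicle minus no LPS (x axis, log2 units; line: 95% interval), in pathway order from top to bottom, with the 3 experiments as ticks. The 17 called sterol members (filled blue) and 6 called fatty acid members (filled orange) lie left of 0, and the 7 open points are members that did not pass.

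In the mevalonate pathway, Hmgcs1, the synthase that makes HMG-CoA, had the largest fall of all members. Its probe set (17290173) read 9.54, 9.96 and 9.85 with LPS and vehicle, against 10.69, 11.00 and 10.42 without LPS. All 3 arrays with LPS lay below all 3 without it. The log2 difference was -0.92 (SE 0.163, 95% interval -1.27 to -0.57, limma adjusted p = 0.000573), a 1.89-fold lower level. Downstream, Pmvk and Mvd, which phosphorylate and decarboxylate mevalonate derivatives, had log2 differences of -0.56 (adjusted p = 0.0174) and -0.43 (adjusted p = 0.0333). Fdps, which makes farnesyl diphosphate, had -0.40 (adjusted p = 0.00987). Fdft1, the squalene synthase, had the smallest called difference, -0.28 (adjusted p = 0.048). Mvk, the mevalonate kinase between Hmgcs1 and Pmvk, did not pass, with a log2 difference of -0.27 (SE 0.133, adjusted p = 0.152). It read 7.00, 7.13 and 7.34 with LPS and vehicle and 7.30, 7.53 and 7.47 without LPS, and 1 array with LPS lay within the range of those without.

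Beyond squalene, 8 of 10 enzymes were lower. Sqle, the squalene epoxidase (probe set 17311807), read 9.76, 10.00 and 9.88 with LPS and vehicle, against 10.50, 10.65 and 10.29 without LPS. These ranges do not overlap, and the log2 difference was -0.60 (SE 0.094, adjusted p = 0.000196). Lss, which closes the sterol rings, had a log2 difference of -0.63 (SE 0.118, adjusted p = 0.000902). Cyp51, the lanosterol demethylase (probe set 17445308), read 8.03, 8.49 and 8.40 with LPS and vehicle, against 8.92, 9.29 and 8.73 without LPS. The spread within each of these groups was wide, with SDs of 0.24 and 0.283, yet the arrays did not overlap, and the log2 difference was -0.67 (SE 0.164, adjusted p = 0.00612). Msmo1 and Nsdhl take methyl groups off the ring. Msmo1 had a log2 difference of -0.58 (adjusted p = 0.000149). Nsdhl (probe set 17535434) read 9.71, 10.04 and 10.00 with LPS and vehicle, against 10.59, 10.75 and 10.39 without LPS. All arrays with LPS were lower, and the log2 difference was -0.66 (SE 0.119, adjusted p = 0.000684). Hsd17b7, a sterol ketoreductase, and Ebp, a sterol isomerase, each had -0.37, with adjusted p of 0.0167 and 0.00129.

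Dhcr7, the reductase of a last step to cholesterol, had the smallest p of the sterol branch. Its probe set (17485357) read 9.36, 9.51 and 9.36 with LPS and vehicle, against 10.04, 10.19 and 10.11 without LPS. The arrays of each group lay close together and well apart from the other group. The means were 9.41 ± 0.0848 and 10.11 ± 0.0773 (SD, n = 3 each), and limma gave a difference of -0.70 (SE 0.0857, adjusted p = 2.1e-05). The 2 enzymes that did not pass were Tm7sf2, a sterol reductase, with -0.17 (adjusted p = 0.457) and Sc5d, a sterol desaturase, with -0.06 (adjusted p = 0.736). Sc5d read 9.68, 9.82 and 9.45 with LPS and vehicle and 9.76, 9.83 and 9.55 without LPS, and the ranges overlap almost wholly. Its 95% interval was -0.30 to 0.17.

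Of the 4 members that govern the pathway, Srebf2, Scap and Insig1 were lower and Insig2 was not called. Srebf2, which encodes the SREBP that mainly drives sterol genes (probe set 17313504), read 10.10, 10.05 and 10.16 with LPS and vehicle, against 10.55, 10.67 and 10.70 without LPS. No array overlapped, and the log2 difference was -0.53 (SE 0.0753, adjusted p = 7.83e-05). Scap, the SREBP escort protein, had -0.41 (adjusted p = 0.00377) on the brighter of its probe sets, and the dimmer one differed by -0.25. Stard4, a sterol transfer protein, had -0.65 (adjusted p = 0.000348).

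Of the INSIG genes, which encode the proteins that retain SCAP, Insig1 was called and Insig2 was not. Insig1 (probe set 17435584) read 10.01, 10.46 and 10.40 with LPS and vehicle, against 11.06, 11.25 and 10.91 without LPS. All arrays with LPS were lower, and the difference of -0.78 (SE 0.178, 95% interval -1.16 to -0.40, adjusted p = 0.00383) was second to Hmgcs1 in the sterol branch. Insig2 read 7.36, 7.39 and 7.41 with LPS and vehicle and 7.36, 7.41 and 7.44 without LPS. These 6 arrays lay within 0.08 of each other, and the log2 difference was -0.02 (adjusted p = 0.914). The difference between the responses of the pair was not tested.

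In the fatty acid branch the falls lay in Fasn, Acaca, Acss2, an elongase and both desaturases of polyunsaturated fatty acids. Fasn, the fatty acid synthase (probe set 17273348), read 9.86, 9.87 and 10.27 with LPS and vehicle, against 10.84, 10.78 and 10.72 without LPS. One array with LPS stood above the other two but still below every array without it, and the log2 difference was -0.78 (SE 0.116, 95% interval -1.03 to -0.53, adjusted p = 0.00013). Acaca, the acetyl-CoA carboxylase that feeds it (probe set 17254395), read 7.87, 7.77 and 7.93 with LPS and vehicle, against 8.34, 8.22 and 8.17 without LPS. These ranges do not overlap, and the log2 difference was -0.39 (SE 0.0865, adjusted p = 0.00343).

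Both genes that supply cytosolic acetyl-CoA were listed. Acss2, which makes it from acetate (probe set 17378359), read 7.34, 7.40 and 7.51 with LPS and vehicle, against 7.95, 8.03 and 7.49 without LPS. The array without LPS of the third experiment lay among those with LPS, and the difference was -0.41 (SE 0.129, adjusted p = 0.0264). Acly, which makes it from citrate (probe set 17269521), read 10.73, 10.63 and 10.80 with LPS and vehicle and 10.90, 10.73 and 10.71 without LPS. The ranges overlap, and the difference was -0.06 (95% interval -0.23 to 0.11, adjusted p = 0.649).

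Elovl5, Fads1 and Fads2 lengthen and desaturate polyunsaturated fatty acids, the family to which docosahexaenoic acid belongs. Fads2 (probe set 17362595) read 9.92, 10.07 and 10.04 with LPS and vehicle, against 10.81, 10.68 and 10.69 without LPS. Its log2 difference was -0.72 (SE 0.0861), and its adjusted p of 1.76e-05 in limma was the smallest of all members. Elovl5 (probe set 17519598) read 9.60, 9.71 and 9.64 with LPS and vehicle, against 10.31, 10.34 and 10.16 without LPS, a log2 difference of -0.62 (SE 0.0781, adjusted p = 2.75e-05). Fads1 (probe set 17357460) read 10.75, 10.83 and 10.69 with LPS and vehicle, against 11.18, 11.17 and 11.20 without LPS, a log2 difference of -0.42 (SE 0.0679, adjusted p = 0.000246). For none of the 3 did an array with LPS and vehicle reach one without LPS.

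The other elongases among the members were not called, and Scd1, a desaturase of saturated fatty acids, was not tested. Elovl1, which acts on very long chains, had a log2 difference of -0.06 (adjusted p = 0.638). Elovl6, which lengthens saturated chains, passed the filter but was dim, at 3.18, 2.98 and 3.36 with LPS and vehicle and 3.60, 2.93 and 3.01 without LPS. Its difference was -0.01 (adjusted p = 0.983) and carries little weight at this brightness. Scd1, the stearoyl-CoA desaturase, was dimmer in all 5 groups than the 40th percentile of the arrays. It read 2.82, 2.84 and 2.81 with LPS and vehicle and 2.58, 2.69 and 2.36 without LPS, so that no fold is given.

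The size of the fall varied between experiments. In 13 of the 17 called sterol members and 4 of the 6 called fatty acid members, the smallest difference was that of the third experiment. The median log2 difference of the called sterol members was -0.64, -0.66 and -0.39 in the 3 experiments, and that of the called fatty acid members was -0.66, -0.62 and -0.48. Of the called members, 16 of 17 and 5 of 6 were lower in all 3 experiments, a share that was not computed over all genes. The exceptions were Mvd, at 0.04 in the third experiment, and Acss2, at 0.02. Of the 30 members tested, 15 sterol and 5 fatty acid genes had all 3 arrays with LPS and vehicle below all 3 arrays without LPS, a separation that 22.2% of all genes tested also showed in that direction. For the called members Mvd, Fdft1 and Acss2 the arrays overlapped.

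Of the 23 calls, 6 were lost when 1 array was left out, which also leaves fewer arrays to test. The sterol count was 12 of 21 without the first array with LPS and vehicle, and also 12 without the second array without LPS, against 17 with all arrays. Pmvk, Fdps and Hsd17b7 lost their calls in both cases (adjusted p of 0.086 and 0.0768 for Pmvk, 0.0544 and 0.0505 for Fdps, 0.0824 and 0.0823 for Hsd17b7). Mvd, Fdft1 and Acss2 lost theirs in these and in others, Mvd and Acss2 without either of the first 2 arrays of either group, with adjusted p of 0.0679 to 0.138 for Mvd and 0.0678 to 0.122 for Acss2. Fdft1 lost its call without any of the arrays with LPS and vehicle and without the first or second array without LPS, with adjusted p of 0.062 to 0.22. The differences stayed below 0, and that of Fdft1 was -0.17 without the second array without LPS, against -0.28 with all arrays. The other 17 called members kept their calls when any 1 of the 6 arrays of these groups was left out. These fits did not enter the experiment. With it entered and all arrays kept, the limma adjusted p was 0.000315 for Pmvk, 0.0034 for Fdps and 0.00947 for Hsd17b7. It was 0.0185 for Mvd, 0.017 for Fdft1 and 0.018 for Acss2.

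Other genes of the same pathways were called in both directions. Members and other genes were listed with earlier results of these data known, so a contrast between the lists is a description only. Of 14 other sterol genes tested, 5 were lower, 2 were higher and 7 did not pass, beside 16.3% and 13.5% of all genes, with a median log2 difference of -0.02. The largest fall was that of Lbr, the lamin B receptor, which also has sterol reductase activity like Tm7sf2. It read 9.51, 9.67 and 9.73 with LPS and vehicle, against 11.04, 10.89 and 11.00 without LPS, a log2 difference of -1.34 (SE 0.0836, adjusted p = 3.94e-08). Acat1, a mitochondrial acetyl-CoA acetyltransferase, had -0.50 (adjusted p = 0.000439), and Erlin1, which takes part in the degradation of sterol-regulated proteins, had -0.31 (adjusted p = 0.0147). Higher were Npc2, a carrier of lysosomal cholesterol, at 0.54 (adjusted p = 0.00129), and Ggps1, which makes geranylgeranyl diphosphate, at 0.38 (adjusted p = 0.00681). Ch25h, which hydroxylates cholesterol, averaged 4.25 with LPS and vehicle and 4.29 without LPS (adjusted p = 0.897).

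Of 20 other fatty acid genes tested, 4 were lower, 4 were higher and 12 did not pass, with a median log2 difference of 0.06. These shares are near the 16.3% lower and 13.5% higher over all genes. Srebf1, which encodes the SREBP that mainly drives fatty acid genes, read 7.60, 7.62 and 7.69 with LPS and vehicle, against 8.11, 8.14 and 8.11 without LPS. All arrays with LPS were lower, and the difference was -0.48 (adjusted p = 0.000521). Lower as well were Scd4, a stearoyl-CoA desaturase, at -1.09 (adjusted p = 0.000105), Hacd1, a dehydratase of fatty acid elongation, at -1.08 (adjusted p = 6.33e-06), and Hacd4, a relative of it, at -0.56. Higher were Hacd3, another such dehydratase, at 1.06 (adjusted p = 1.55e-06), Mlx, a transcription factor partner, at 0.70, and Acsl4, an acyl-CoA synthetase, at 0.65. The direction therefore differed within the dehydratase family.

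With either HDHEA, or with both, no sterol or fatty acid gene was called against LPS with vehicle. In limma, 0 of the 30 members passed in each of the 3 comparisons, and 0 had an unadjusted p under 0.05. The adjusted p was 1 for each of the 30. Over all genes, 0.00646% were called lower and 0% higher with 13-HDHEA, and 0% in either direction with 16-HDHEA or with both compounds, where 660, 460 and 539 genes had an unadjusted p under 0.05 with 13-HDHEA, with 16-HDHEA and with both. The median log2 difference of the sterol members was 0.02 with 13-HDHEA, -0.00 with 16-HDHEA and 0.00 with both, and that of the fatty acid members was 0.01, 0.00 and 0.01. The 95% interval lay within 0.5 of 0 for 29 members with 13-HDHEA (all but Elovl6), for 28 with 16-HDHEA (all but Insig1 and Elovl6) and for 28 with both (all but Mvk and Elovl6). For the 23 members called lower with LPS, the upper bound was below the size of that fall in all 3 comparisons. All of these use the same arrays with LPS and vehicle. They also share 1 spread with the LPS call, which already requires a fall larger than the reach of these intervals to either side. Any HDHEA difference near 0 would therefore meet this bound, and it adds nothing to the intervals themselves.

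**Figure D2:**
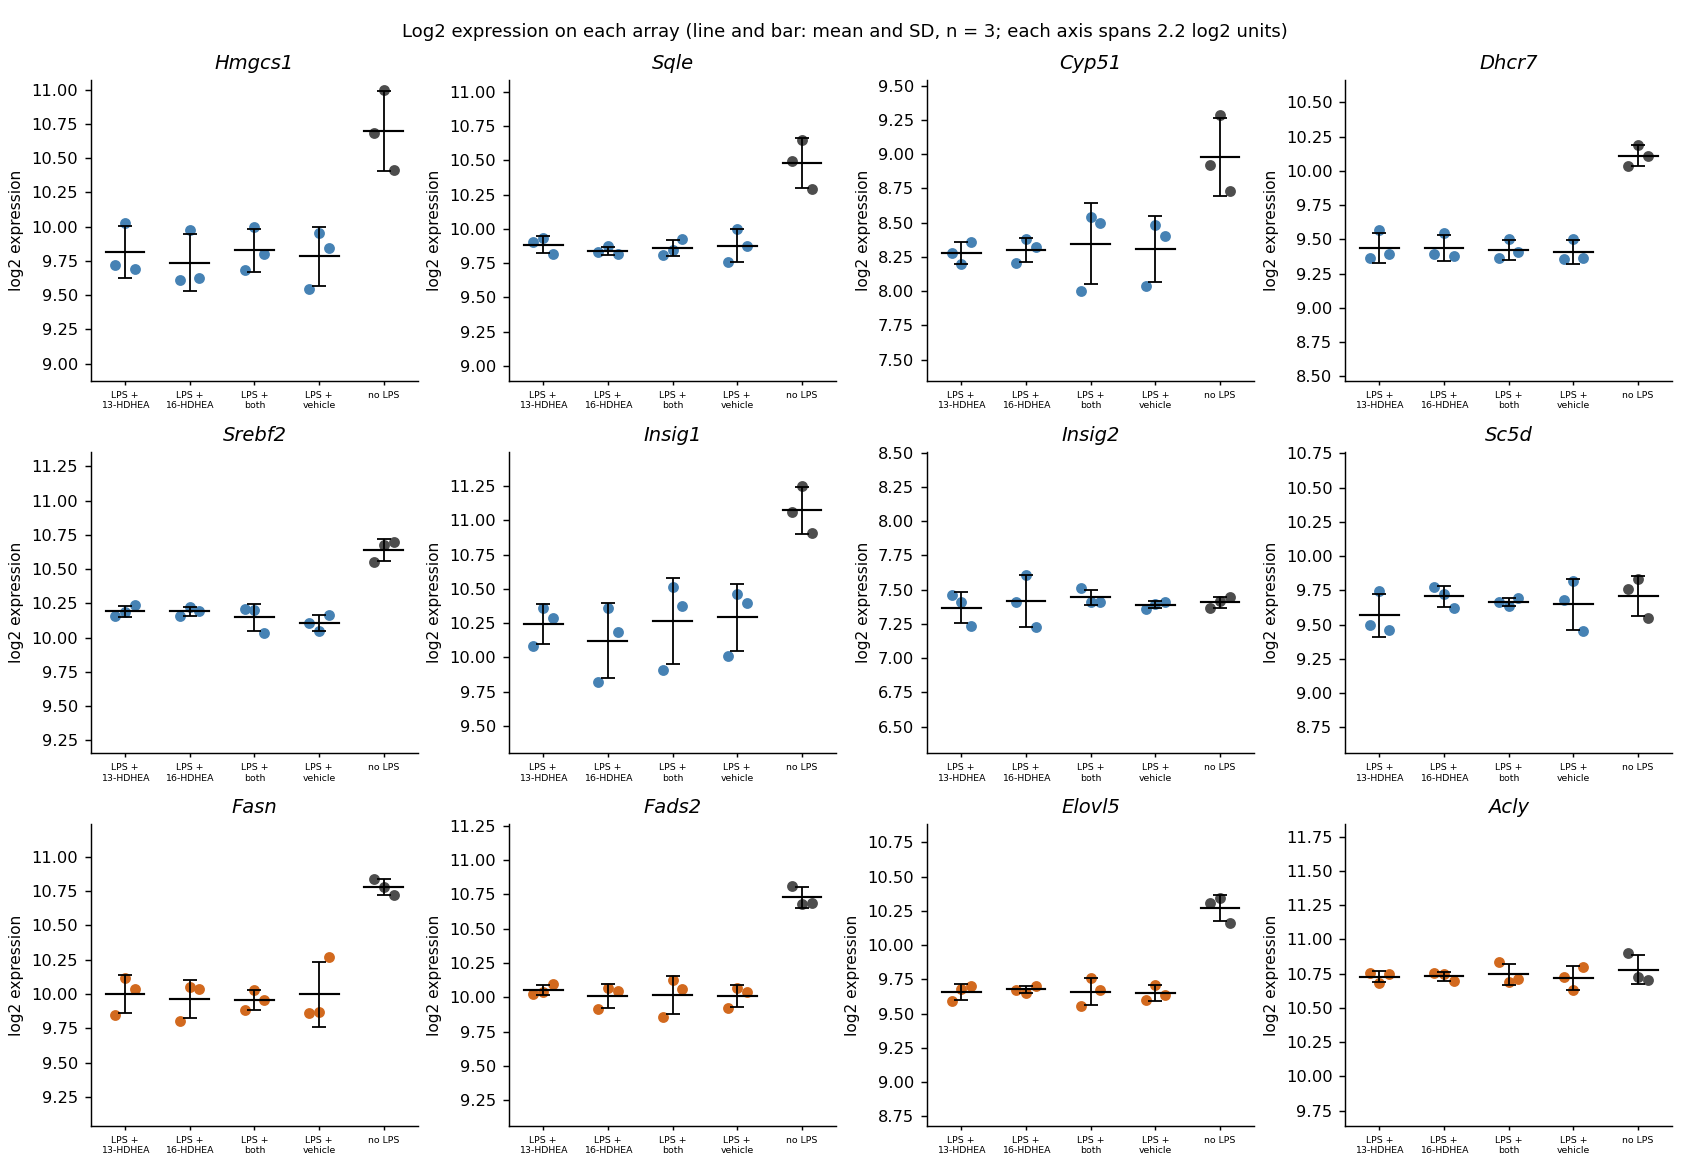
Log2 expression on each array (y axis) of 12 members in the 5 groups, with the group mean and SD (n = 3); blue are sterol and orange fatty acid genes in cells with LPS, grey are cells without LPS. For the 9 called genes shown, the 12 arrays with LPS lie below the 3 without it, whereas Insig2, Sc5d and Acly overlap. Of all called members this held for 15 of 17 sterol and 5 of 6 fatty acid genes, and not for Mvd, Fdft1 and Acss2. The share of all genes tested with this separation of the 12 arrays was not computed.

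Hmgcs1 shows the pattern for the most responsive gene. It read 9.72, 10.03 and 9.69 with 13-HDHEA, 9.61, 9.98 and 9.63 with 16-HDHEA and 9.68, 9.99 and 9.80 with both. In each of these groups the second experiment was highest, as it was in the group with LPS and vehicle, whose arrays are given above. Insig1 read 10.08, 10.36 and 10.29 with 13-HDHEA, 9.82, 10.36 and 10.19 with 16-HDHEA and 9.91, 10.51 and 10.38 with both. The first experiment was lowest in each group with LPS. With 16-HDHEA its log2 difference from vehicle was -0.17 (SE 0.178, 95% interval -0.55 to 0.21), lower in 3 of 3 experiments. This interval does not pair the arrays by experiment. With the experiment entered in the limma fit, 0 sterol members had an unadjusted p under 0.05 in this comparison.

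The other members with full values were as level. Sqle read 9.90, 9.93 and 9.81 with 13-HDHEA, 9.83, 9.87 and 9.82 with 16-HDHEA and 9.81, 9.85 and 9.93 with both. Cyp51 read 8.28, 8.20 and 8.36 with 13-HDHEA, 8.21, 8.38 and 8.32 with 16-HDHEA and 8.00, 8.54 and 8.49 with both. Dhcr7 read 9.36, 9.56 and 9.39 with 13-HDHEA, 9.39, 9.55 and 9.38 with 16-HDHEA and 9.36, 9.51 and 9.41 with both. For these 3 sterol enzymes, the range of each HDHEA group overlapped that of LPS with vehicle. Fasn read 9.85, 10.12 and 10.04 with 13-HDHEA, 9.80, 10.05 and 10.04 with 16-HDHEA and 9.88, 10.03 and 9.95 with both. Acaca read 7.81, 7.88 and 7.66 with 13-HDHEA, 7.82, 7.88 and 7.82 with 16-HDHEA and 8.01, 7.90 and 7.79 with both. Acss2 read 7.53, 7.44 and 7.53 with 13-HDHEA, 7.45, 7.53 and 7.25 with 16-HDHEA and 7.49, 7.43 and 7.24 with both. Each of these ranges also overlapped that of LPS with vehicle.

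With 13-HDHEA, the sterol members with the smallest p were Srebf2 and Sc5d. Srebf2 read 10.15, 10.18 and 10.23 with 13-HDHEA, against 10.10, 10.05 and 10.16 with LPS and vehicle. It was slightly higher in each experiment, by 0.05, 0.14 and 0.07, but the ranges overlap slightly, and the log2 difference was 0.09 (SE 0.0753, 95% interval -0.08 to 0.25). Sc5d had -0.08 (95% interval -0.32 to 0.16). Of the fatty acid members, Fads1 read 10.84, 10.86 and 10.85 with 13-HDHEA, against 10.75, 10.83 and 10.69 with LPS and vehicle. Its log2 difference was 0.09 (SE 0.0679, 95% interval -0.05 to 0.24), which was smaller than its fall with LPS. It was the 1 of 30 members whose arrays did not overlap, where 7.93% of all genes did not overlap in either direction. Elovl6 had group means under the 40th percentile of the arrays in all 3 HDHEA groups, so that its differences there are not given. It read 3.20, 2.71 and 2.92 with 13-HDHEA, 3.21, 3.02 and 2.90 with 16-HDHEA and 2.67, 3.01 and 3.01 with both.

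With 16-HDHEA the largest upward differences were as small. Srebf2 had 0.09 (95% interval -0.08 to 0.25), Scap 0.09 (95% interval -0.11 to 0.29) and Elovl1 0.09 (95% interval -0.08 to 0.26). With both compounds, Mvk read 7.02, 6.93 and 6.83, against 7.00, 7.13 and 7.34 with LPS and vehicle. The experiments differed by 0.01, -0.20 and -0.52, and the overall difference of -0.24 (SE 0.133, 95% interval -0.52 to 0.05) had the smallest unadjusted p of any member against vehicle. Stard4 had 0.16 (95% interval -0.08 to 0.39) and Fads1 0.05. The number of members that kept one direction in all 3 experiments was 6 with 13-HDHEA, 5 with 16-HDHEA and 4 with both, of 30. The share of all genes that did so was not computed, so these counts are a description only.

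**Figure D3:**
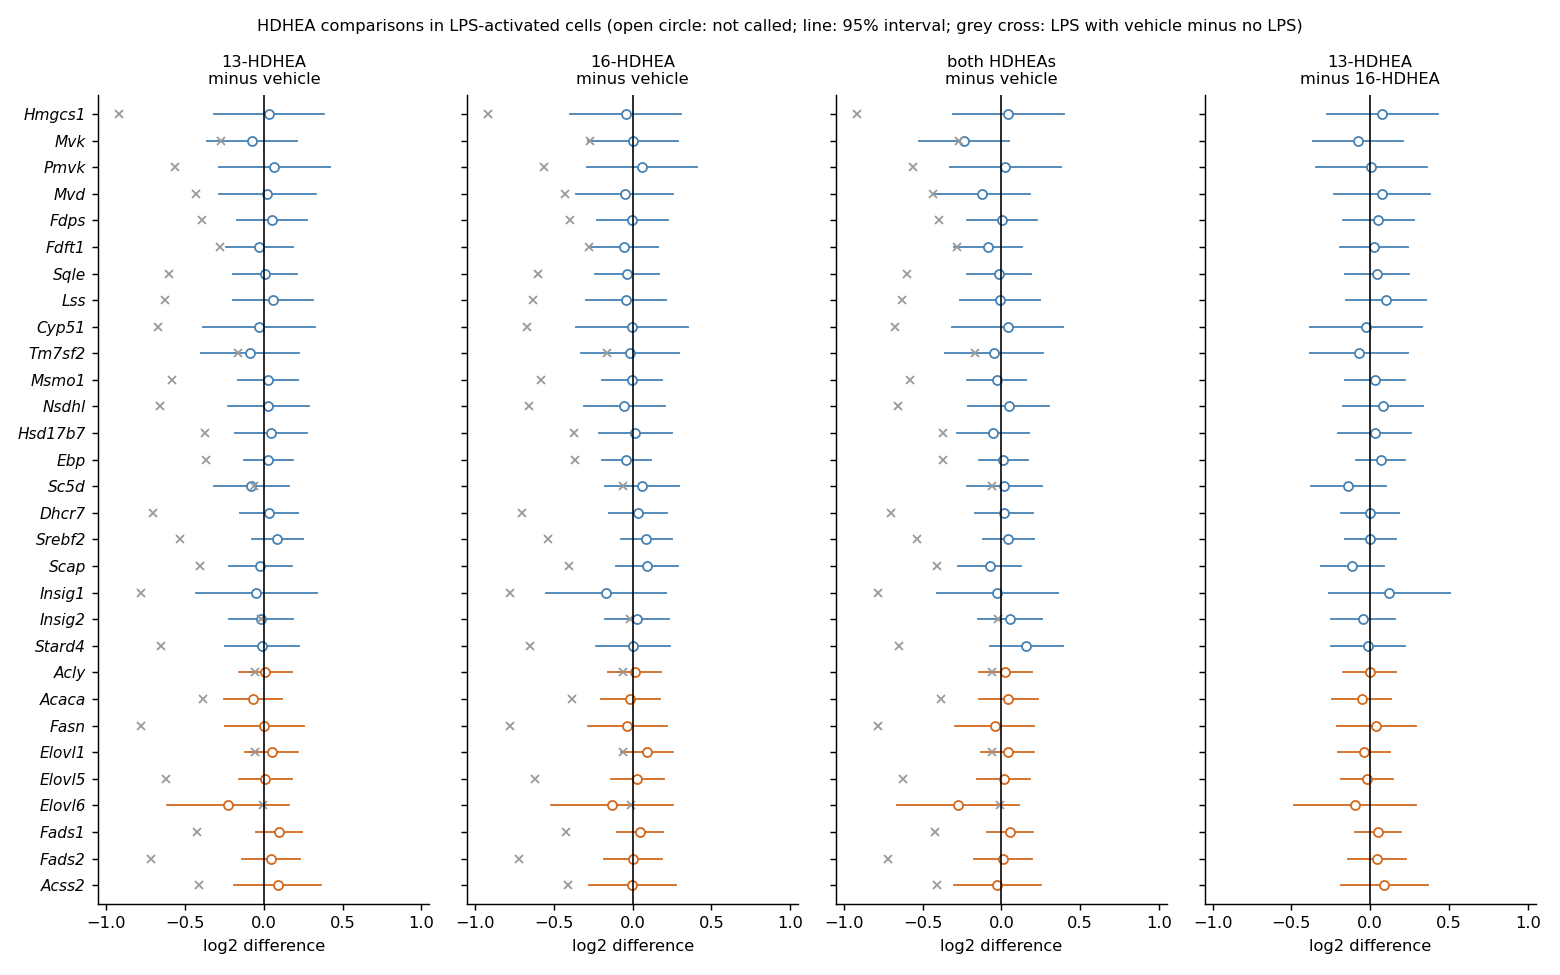
Log2 difference of each tested member from LPS with vehicle (x axis, log2 units; line: 95% interval) with 13-HDHEA, 16-HDHEA and both compounds, and of 13-HDHEA from 16-HDHEA; blue are sterol and orange fatty acid genes, and grey crosses repeat the difference of LPS with vehicle from no LPS. No member was called in any panel, and the widest intervals are those of Insig1 and of Elovl6, whose HDHEA groups lie under the 40th percentile of the arrays.

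The positional isomers were compared directly at the same dose and time. With 13-HDHEA against 16-HDHEA, 0 of 30 members were called in limma and 0 had an unadjusted p under 0.05 (adjusted p = 1 for each), where 0.00646% of all genes were called lower, 0% higher and 480 had an unadjusted p under 0.05. Differences between the isomers ran from -0.14 to 0.12, and 29 of 30 intervals lay within 0.5 of 0, all but that of Insig1. Sc5d had -0.14 (SE 0.11, 95% interval -0.37 to 0.10). Scap read 7.07, 7.14 and 7.05 with 13-HDHEA, against 7.20, 7.23 and 7.17 with 16-HDHEA. Its arrays did not overlap, and the difference of -0.11 (SE 0.0925, 95% interval -0.31 to 0.09) had the same sign in 3 of 3 experiments. Fads1, at 10.84, 10.86 and 10.85 with 13-HDHEA and 10.84, 10.79 and 10.78 with 16-HDHEA, was the other member without overlap, by a margin that rounding hides, and its difference was 0.05 (95% interval -0.10 to 0.20). Over all genes, 6.59% did not overlap between the isomers in either direction. Acss2 had 0.09 (95% interval -0.19 to 0.37). These intervals bound the difference between isomers and do not show that they act alike.

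The mixture was also set against the mean of the single treatments, at the same total dose. Again 0 of 30 members were called in limma and 0 had an unadjusted p under 0.05 (adjusted p = 1 for each), with 0% of all genes called in either direction and 496 at an unadjusted p under 0.05. All 30 intervals lay within 0.5 of 0. Mvk had -0.20 (95% interval -0.45 to 0.05), Stard4 0.16 (95% interval -0.04 to 0.36) and Acaca 0.09 (95% interval -0.07 to 0.25).

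Against the cells without LPS, the 3 HDHEA groups gave their own counts, which share the arrays without LPS with the comparison above. With 13-HDHEA, 17 sterol and 5 fatty acid members were lower, with 17.0% of all genes called lower and 12.7% higher. With 16-HDHEA, 17 and 6 were lower, with 16.3% and 13.1% of all genes. With both compounds, 18 and 6 were lower, with 16.2% and 12.7% of all genes. No member was higher in any of the 3. All 4 comparisons with no LPS called 22 members lower, 17 sterol and 5 fatty acid genes, and 13.2% of all genes tested. Acss2 missed the threshold with 13-HDHEA (adjusted p = 0.0768), and Mvk passed with both compounds. With 1 array of the groups compared left out, the sterol count was 12 to 16 with 13-HDHEA, 12 to 17 with 16-HDHEA and 15 to 19 with both, and the fatty acid count was 5 to 6 in each.

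The calls lost in this way were those of the same 6 genes and of Scap. With the second array without LPS left out, Pmvk, Fdps and Fdft1 lost their calls in all 3 comparisons, Mvd and Hsd17b7 with 13-HDHEA and with 16-HDHEA, and Acss2 with 16-HDHEA and with both. The first array without LPS took Mvd, Fdft1 and Hsd17b7 with 13-HDHEA, and Acss2 with 16-HDHEA and with both. The third took Pmvk in all 3 comparisons, and Scap with 16-HDHEA (adjusted p = 0.0846). Among the arrays with 13-HDHEA, Pmvk was lost without the first or the second, Mvd, Fdps and Fdft1 without the first or the third, and Hsd17b7 without any 1 of them. Among those with 16-HDHEA, Pmvk was lost without the first or the second, Mvd without the first, Fdft1 and Hsd17b7 without the first or the third, and Scap and Acss2 without the third. Among those with both compounds, Pmvk was lost without the first, and Fdft1 and Acss2 without the third. The adjusted p of the lost calls ran from 0.0505 for Fdps to 0.168 for Mvd. Calls were gained as well. With 13-HDHEA, Acss2 passed in limma without the third array without LPS (adjusted p = 0.00344), and Mvk without the second array with 13-HDHEA (adjusted p = 0.0185). With both compounds, Tm7sf2 passed without the second array of that group (adjusted p = 0.0399).

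The level of each branch was also followed array by array. Set against the mean of the arrays without LPS, the median of the sterol members was -0.59, -0.44 and -0.42 with 13-HDHEA and -0.48, -0.42 and -0.47 with 16-HDHEA. It was -0.55, -0.45 and -0.53 with both compounds, -0.58, -0.49 and -0.39 with LPS and vehicle, and -0.02, 0.17 and -0.14 without LPS. The 12 arrays with LPS lay below the 3 without it. In the fatty acid branch the medians were -0.34, -0.39 and -0.33 with 13-HDHEA, -0.37, -0.36 and -0.42 with 16-HDHEA, -0.34, -0.34 and -0.46 with both compounds, -0.43, -0.43 and -0.32 with LPS and vehicle, and 0.09, -0.03 and -0.07 without LPS. The order of the 4 groups with LPS was not the same from experiment to experiment, and their ranges overlapped.

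**Figure D4:**
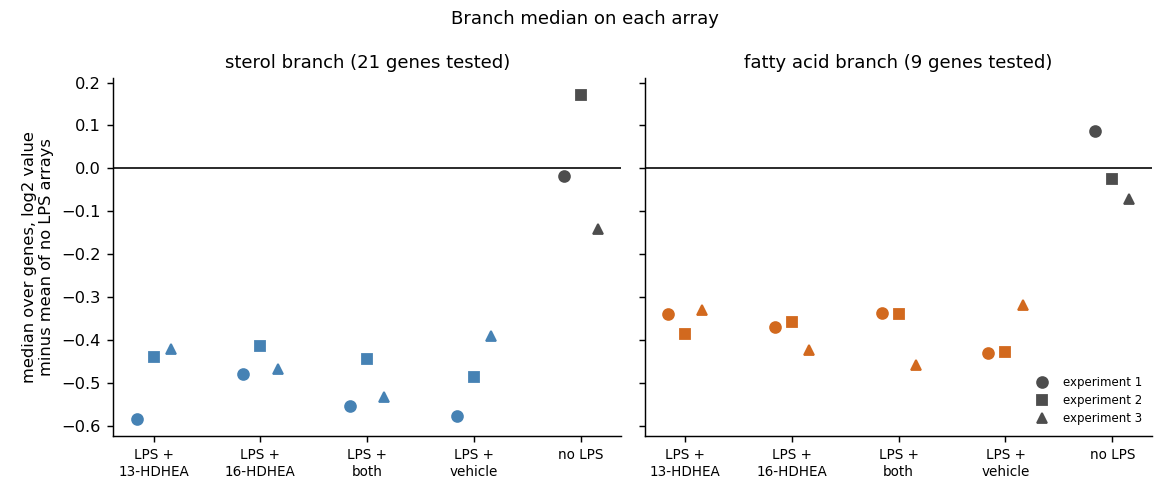
Median over the members of each branch on each array, as the log2 difference from the mean of the arrays without LPS (y axis), for the 5 groups with 1 point per experiment. The 4 groups with LPS overlap and lie below the group without LPS in both branches.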

How the data were processed

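Per the labels' protocols, biotin-labelled target from total RNA was run on Affymetrix whole-transcript arrays. The values deposited, on a log2 scale with 1 per probe set, were made with RMA per the submitters' processing notes, and no version or chip definition was given. RMA compresses changes of dim probe sets, and the number of arrays limits the precision.

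Groups and experiment numbers were taken from the labels. Of 41345 probe sets, 23521 had 1 gene symbol, 1814 had several and 16010 were not listed in the gene table used. A gene was tested where it exceeded the array's 40th percentile (3.16 to 3.22) in at least 3 arrays. All 15 arrays entered 1 fit of group means in limma 3.58.1 (R 4.3.3), two-sided, with 10 residual degrees of freedom. Samples of the same number come from the same experiment. The deviations of the 30 same-numbered pairs of arrays correlated at 0.0835 to 0.404, and 15 of 15 arrays correlated best with their own number. Experiment as a replicate block was an alternative, as were other filters, moderation, scalings and left-out arrays.

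All members may be named. Values of single arrays are given for 13 genes of key steps, except Scd2, which has none. They are also given for up to 5 called members a branch with the largest difference. For some of these genes the arrays of some or all HDHEA groups are not given. For each HDHEA comparison the 2 members a branch with the smallest p are named. Of other pathway genes, up to 3 called a list and direction are named. Insig2, Mvk, Sc5d, Scap, Lbr and Srebf1 were given array values after those were seen. The members and gene lists were chosen with earlier results of these data known.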

Additional observations from a re-analysis of the deposited data

How the results depend on the processing

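No called difference reversed its direction under any of the alternatives run. For LPS with vehicle against no LPS, the replicate block gave 17 sterol and 6 fatty acid members called lower, the same genes as without it, and it changed no other call of a member; among the other pathway genes it added Rnf139 (adjusted p = 0.0451), Mylip (adjusted p = 0.000964) and Tecr (adjusted p = 0.0492). The counts were 14 to 17 and 5 to 6 under the other settings, and 12 to 17 and 5 to 6 with 1 array left out. Fdft1 lost its call without the filter (adjusted p = 0.0755), Fdft1, Mvd, Hsd17b7 and Acss2 with only the groups compared (0.15, 0.0806, 0.0807 and 0.0873), and Fdft1 and Mvd with centred arrays (0.0914 and 0.0713). Centring the arrays shifted all genes by 0.06 and gave 2082 genes lower and 2534 higher, against 2527 and 2089. For the HDHEA groups against no LPS, the sterol count was 12 to 18 with 13-HDHEA, 14 to 17 with 16-HDHEA and 16 to 18 with both under the other settings. Centred arrays lost Pmvk, Mvd, Fdps, Fdft1 and Hsd17b7 with 13-HDHEA, and Pmvk, Hsd17b7 and Scap with 16-HDHEA. The fit of only the groups compared lost Mvd, Fdps, Fdft1 and Hsd17b7 with 13-HDHEA. It lost Fdft1, Hsd17b7, Scap and Acss2 with 16-HDHEA, and Pmvk, Fdft1 and Acss2 with both. With 13-HDHEA, Mvd and Hsd17b7 were lost without the filter, and Mvd with repeated quantile normalization. The mean of its probe sets lost Scap with 16-HDHEA (adjusted p = 0.169) and with both (adjusted p = 0.118). Mvk gained a call with 13-HDHEA under the 60th percentile filter and under the other moderation. No member was called in an HDHEA comparison with LPS cells under any setting. The sterol median of 13-HDHEA against 16-HDHEA was 0.0422 with repeated quantile normalization, against 0.0256. The fatty acid median of 13-HDHEA against no LPS, -0.33, was -0.39 with the 60th percentile filter, -0.25 with centred arrays and -0.39 with repeated quantile normalization. Centring shifted all genes of this comparison by 0.0773, and the 60th percentile filter leaves out the dim Elovl6, so that this median is over fewer genes. The cause of the changes with repeated quantile normalization was not tested. With 1 array left out, the sterol and fatty acid medians ran from -0.0502 to 0.0574 and from -0.0165 to 0.0586 for 13-HDHEA against vehicle. The sterol median ran from -0.076 to 0.0276 for both compounds against vehicle and from -0.0167 to 0.049 for 13-HDHEA against 16-HDHEA. For the mixture against the single treatments the medians ran from -0.0551 to 0.024 and from -0.0537 to 0.0086. The fatty acid median of 13-HDHEA against no LPS ran from -0.49 to -0.33. Signal over background limits Scd1 and Elovl6.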
